A study of Homo sapiens with 8 samples.

Results

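Aminoacyl-tRNA synthetases are the enzymes that load each amino acid onto its own tRNAs. The 35 genes described here come from a list of synthetase symbols that was chosen with earlier results of these data known. They stand among 18417 genes that the annotation of the array names on a transcript cluster with 1 symbol. All 35 were measured, and no filter on low values was set. Of these genes, 19 encode cytosolic enzymes and 15 encode mitochondrial enzymes, while IARS2, which the list sets apart, was kept out of both sets. Each gene is represented by the transcript cluster (the array's unit of about 1 gene) with the highest mean signal.

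The cytosolic enzymes supply the ribosomes of the cytosol. The enzymes whose symbols end in 2 are encoded in the nucleus and imported into mitochondria, where they supply the ribosomes that make subunits of the respiratory chain, whereas GARS1 and KARS1 serve both compartments. Many cytosolic synthetase genes are known targets of ATF4, a transcription factor that is translated when eIF2α is phosphorylated during amino acid shortage or stress of the endoplasmic reticulum, and that binds composite C/EBP-ATF elements in promoters.

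The study asked how VHL and hypoxia alter gene expression in the renal cell carcinoma line 786-O, which lacks functional VHL, the recognition subunit of the ubiquitin ligase that marks HIFα for degradation. It compared 4 groups, each with 2 arrays (8 in all): 786-O cells stably carrying a VHL expression vector (VHL+) under hypoxia and under normoxia, and untransfected 786-O cells (VHL-) under hypoxia and under normoxia. Cells were cultured for 24 h under these conditions, total RNA was hybridized to Affymetrix gene arrays, and the values are log2 signals after Robust Multichip Average (RMA). All groups share 1 parental line, the transfectants were a bulk culture, and cells with an empty vector are not among these arrays, so VHL and the transfection itself cannot be told apart.

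VHL had log2 signals of 9.08 and 9.16 in VHL+ cells under hypoxia and 8.85 and 8.86 in VHL+ cells under normoxia, against 8.23 and 8.51 in VHL- cells under hypoxia and 8.24 and 8.43 in VHL- cells under normoxia, so that all VHL+ arrays were higher. The renal markers PAX8, PAX2, KRT8, KRT18, VIM and CDH2 lay above the median of every array, and 9 of 10 markers of leukocytes, endothelium, liver, erythroid cells and fibroblasts lay below it on all 8 arrays, COL1A1 being the exception. Replicates correlated with a Pearson r of 0.991 to 0.994 across 33297 transcript clusters. The median log2 fold change over all clusters was not 0: it was 0.09 for hypoxia in VHL+ cells, -0.12 for hypoxia in VHL- cells, 0.16 for VHL+ vs. VHL- cells under hypoxia and -0.04 for VHL+ vs. VHL- cells under normoxia. These shifts vanish by construction after quantile normalization, so values are given beside them.

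Under hypoxia, cytosolic and mitochondrial synthetases of VHL- cells moved apart. Of 19 cytosolic genes, 12 had a log2 fold change above 0 for hypoxia vs. normoxia, between 0.16 for LARS1 and 0.96 for AARS1, and the other 7 lay between -0.29 for HARS1 and -0.10 for KARS1. The 15 mitochondrial genes lay between -0.32 for HARS2 and 0.06 for PARS2. The median log2 fold change was 0.43 for the cytosolic and -0.17 for the mitochondrial genes, beside -0.12 for all clusters. After quantile normalization these medians were 0.51 and -0.07, beside 0.00 for all clusters. The cytosolic median was 0.26 without VHL- normoxia replicate 1 and 0.27 without VHL- hypoxia replicate 2, and the mitochondrial median ran from -0.29 (without VHL- hypoxia replicate 2) to -0.10 (without VHL- hypoxia replicate 1 or VHL- normoxia replicate 2).

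No member passed limma's test in VHL- cells at an adjusted p under 0.05, a threshold that 0.0661% of all clusters passed in either direction. Some members passed in a fit with the replicate number as a block, as given in the last section. At an unadjusted p under 0.05, limma had 10 members higher, all of them cytosolic, where 0.478% of all clusters were higher, and 1 member lower (HARS2, mitochondrial), where 4.82% of all clusters were lower. Counted by array, 11 members had both hypoxic arrays above both normoxic arrays (2.47% of all clusters did) and 12 had both below (45.5% of all clusters did). All 11 of the first kind were cytosolic, and the second kind held 4 cytosolic genes, 7 mitochondrial genes and IARS2. Since many clusters shared the downward shift, the 12 lower members lie near that background. Which members passed the adjusted threshold changed with the array left out, as did the share of all clusters that passed.

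**Figure D1:**
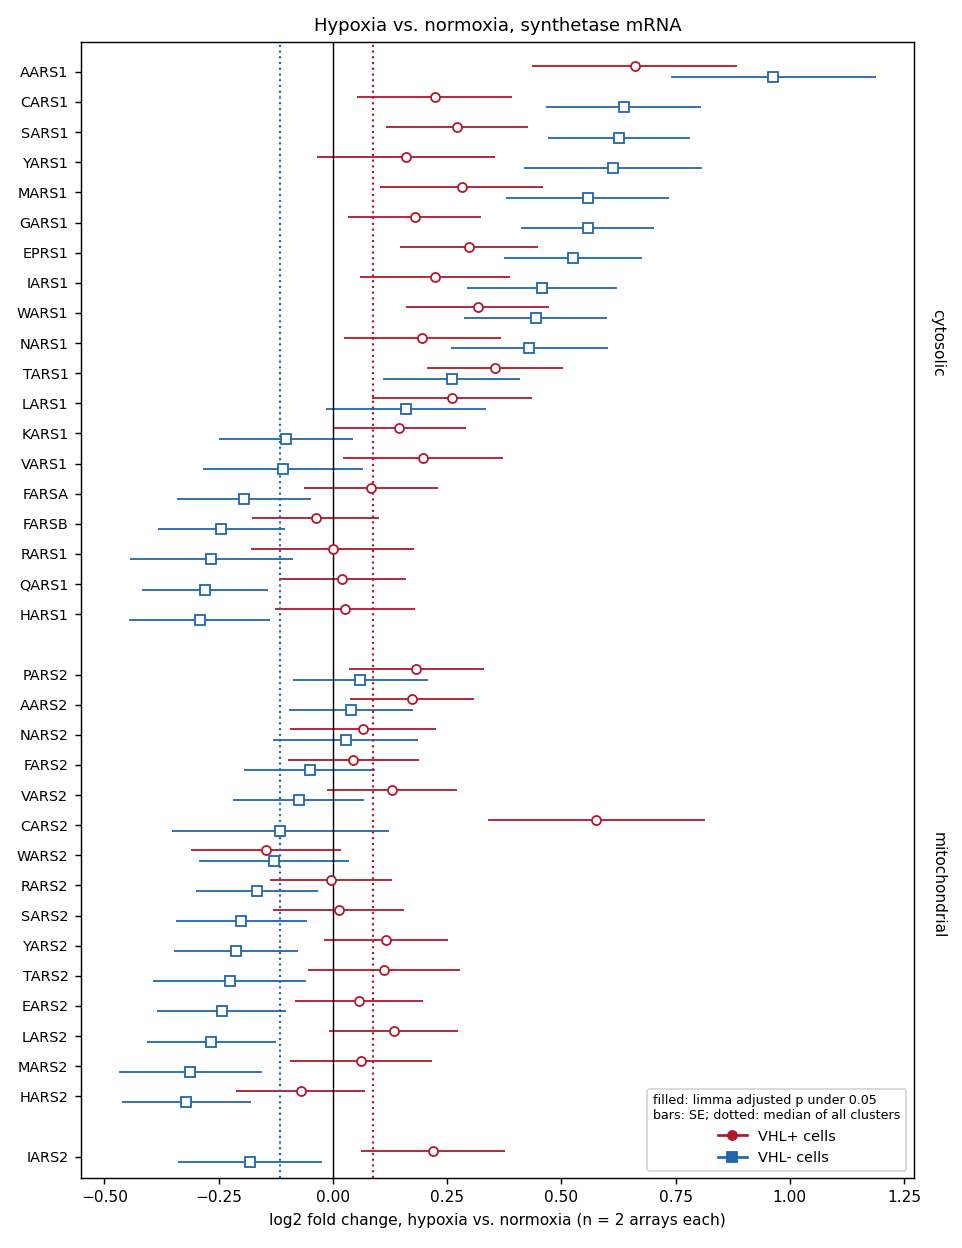
Log2 fold change of hypoxia vs. normoxia (x axis) for each of the 35 synthetase genes (y axis), with circles for VHL+ cells and squares for VHL- cells. Bars are standard errors of the limma fit (n = 2 arrays a group), filled symbols would mark an adjusted p under 0.05, and dotted lines give the medians of all clusters (0.09 in VHL+ and -0.12 in VHL- cells). In VHL- cells, 12 cytosolic genes lie to the right of 0 and apart from the mitochondrial genes, while in VHL+ cells the sets lie closer together.

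In VHL+ cells the sets lay closer together. The median log2 fold change for hypoxia vs. normoxia was 0.20 over the cytosolic genes and 0.07 over the mitochondrial genes, beside 0.09 for all clusters. After quantile normalization they were 0.04 and -0.07, beside 0.00. The cytosolic median was 0.07 without VHL+ normoxia replicate 1 and 0.37 without VHL+ normoxia replicate 2, and without the same arrays the mitochondrial median was -0.02 and 0.17 in that order. AARS1 (0.66) and CARS2 (0.58) had the largest log2 fold changes of their sets. No member passed the adjusted threshold, which 0.153% of all clusters passed. By limma at an unadjusted p under 0.05, 3 members were higher (background 5.76%) and 0 were lower (background 0.402%). Both hypoxic arrays lay above both normoxic arrays for 13 of 35 members, not far above the share of all clusters (28%), and below for 0 members (2.38% of all clusters). Some fits with 1 array left out had AARS1 or CARS2 under the adjusted threshold and others had no member, and the share of all clusters under it changed as well.

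Alanyl-tRNA synthetase, AARS1, had the largest response to oxygen among the members. It had log2 signals of 10.91 and 11.04 in VHL+ cells under hypoxia, against 10.21 and 10.42 in VHL+ cells under normoxia. In VHL- cells it had 11.06 and 11.65 under hypoxia, against 9.95 and 10.84 under normoxia. All 4 hypoxic arrays lay above all 4 normoxic arrays, and the normoxic VHL- arrays differed from each other by more than any other pair of replicates of this gene. Over both cell types, its log2 fold change was 0.81 (SE 0.15, adjusted p = 0.0182, 1.76-fold), and it was the only member called for hypoxia over both cell types, where 0.111% of all clusters were called higher. The call was lost after quantile normalization (log2 0.77, adjusted p = 0.279) and without VHL+ hypoxia replicate 1 (log2 0.87, adjusted p = 0.633), and with 1 array left out the log2 fold change ran from 0.60 to 0.96. In the same fit, 11 members were higher at an unadjusted p under 0.05, all of them cytosolic, beside 2.63% of all clusters. For 4 members, all cytosolic, every hypoxic array lay above every normoxic array, beside 0.45% of all clusters.

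The difference between the compartments can be read on each array. The median log2 signal of the cytosolic genes exceeded that of the mitochondrial genes by 2.36 and 2.25 in VHL+ cells under hypoxia and by 2.27 and 2.25 in VHL+ cells under normoxia. It exceeded it by 2.60 and 2.54 in VHL- cells under hypoxia, against 2.14 and 2.14 in VHL- cells under normoxia. Since probes differ in brightness, only the change of this difference between arrays can be read, and it was highest on both hypoxic VHL- arrays and lowest on both normoxic VHL- arrays. The SD of these array values between replicates was 0.05 for the groups of VHL+ cells and 0.03 for those of VHL- cells (n = 2 each). A separate measure was the cytosolic minus mitochondrial difference in median log2 fold change for hypoxia, which takes the change of each gene first. It was 0.13 in VHL+ cells and 0.60 in VHL- cells, and the SD above does not apply to it. In VHL- cells it ran between 0.43, without VHL- normoxia replicate 1, and 0.60 with 1 array left out.

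**Figure D2:**
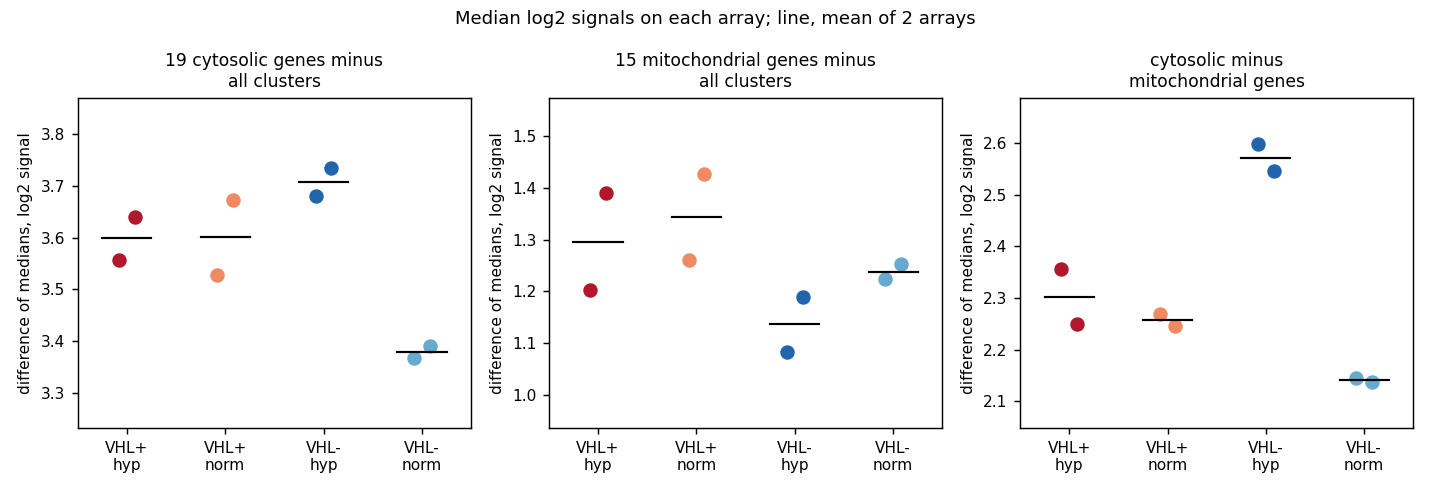
Differences between median log2 signals on each array (y axis), for the 4 groups (x axis), with points for arrays and lines for the mean of 2 arrays. Panels give cytosolic genes minus all clusters, mitochondrial genes minus all clusters, and cytosolic minus mitochondrial genes. In the panel of cytosolic minus mitochondrial genes, the hypoxic VHL- arrays (2.60 and 2.54) lie above all others and the normoxic VHL- arrays (2.14 and 2.14) below.

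Enzymes for the same amino acid were set against each other in 17 pairs of a cytosolic and a mitochondrial gene. The cytosolic gene had the higher log2 fold change for hypoxia in 15 pairs in VHL+ cells and in 13 pairs in VHL- cells. Some of the widest gaps in VHL- cells were for alanine (AARS1 0.96, AARS2 0.04), methionine (MARS1 0.56, MARS2 -0.31), serine (SARS1 0.63, SARS2 -0.20) and tyrosine (YARS1 0.61, YARS2 -0.21). The 4 exceptions in VHL- cells were arginine, valine and both subunits of the phenylalanine enzyme. For phenylalanine, FARSA and FARSB, the subunits of the cytosolic enzyme, had -0.19 and -0.24, and mitochondrial FARS2 had -0.05. HARS1 and HARS2, for histidine, had nearly the same values (-0.29 and -0.32).

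The cytosolic genes were also set out by structural class and by membership of the multi-synthetase complex, a cytosolic assembly of several synthetases. For hypoxia in VHL- cells the median log2 fold change was 0.45 over 10 cytosolic class I genes, which have a Rossmann-fold catalytic domain, and 0.26 over 9 class II genes, which have an antiparallel fold. It was 0.16 over the 7 members of the complex, where EPRS1 (0.53), IARS1 (0.46) and MARS1 (0.56) stood beside KARS1 (-0.10), QARS1 (-0.28) and RARS1 (-0.27), and 0.44 over the 12 cytosolic genes outside it.

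Promoters were searched for TGATGNAA, a form of the composite C/EBP-ATF element, on both strands (TTNCATCA in reverse), from 250 bases before to 50 after each annotated start. RefSeq promoters (GRCh38.p14) were matched for 30 of 35 members, and AARS2, LARS1, VARS1, VARS2 and YARS1 are named only. The element was found for 7 of 16 cytosolic genes (43.8%) and for 1 of 14 genes of the mitochondrial set with IARS2 (7.14%), against 4.46% of 27305 genes in the table. No such match of a member overlapped a match of ACGTG, the core of the hypoxia response element. The windows are shown because the 7 cytosolic genes that hold them were all higher on both hypoxic VHL- arrays than on both normoxic ones. They run 5′ to 3′ along the gene's strand, with the element in capitals.
AARS1: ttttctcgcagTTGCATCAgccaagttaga
CARS1: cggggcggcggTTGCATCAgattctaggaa
GARS1: ttacgcggcgaTTTCATCAtgctccgagcc
IARS1: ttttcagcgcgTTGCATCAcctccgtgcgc
MARS1: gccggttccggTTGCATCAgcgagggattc
NARS1: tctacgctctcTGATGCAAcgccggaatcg
TARS1: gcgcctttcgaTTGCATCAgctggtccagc
YARS2: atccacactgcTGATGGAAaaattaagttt

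The window of AARS1 lies at chr16:70289675-70289704 on the minus strand, with the first base of the element at -187 from the start. The other windows lie at chr11:3057407-3057436 (CARS1, minus strand), chr7:30594834-30594863 (GARS1, plus strand), chr9:92293692-92293721 (IARS1, minus strand), chr12:57488053-57488082 (MARS1, plus strand), chr18:57621804-57621833 (NARS1, minus strand), chr5:33440956-33440985 (TARS1, plus strand) and chr12:32756076-32756105 (YARS2, minus strand). The element began at -2 in CARS1, -33 in GARS1, -13 in IARS1 and -4 in MARS1, just before the start. In NARS1 and TARS1 it began at base 15 and base 3 of the transcript, and in YARS2 it began far upstream at -197. Of the 7 cytosolic genes with the element, 6 share the same 8 letters, TTGCATCA or its reverse TGATGCAA, while GARS1 and YARS2 differ from them in the open letter N.

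For the 7 cytosolic genes with the element, the median log2 fold change for hypoxia was 0.22 in VHL+ cells and 0.56 in VHL- cells, with values between 0.26 (TARS1) and 0.96 (AARS1) in VHL- cells. Without VHL- normoxia replicate 1 the median in VHL- cells was 0.34, and in VHL+ cells it was 0.14 and 0.42 without VHL+ normoxia replicate 1 and replicate 2. All 7 genes were lower on VHL- normoxia replicate 1 than on replicate 2, for example AARS1 (9.95 against 10.84) and CARS1 (7.77 against 8.36). For the 9 cytosolic genes in whose window the letters were not found, the median in VHL- cells was -0.19. This set held SARS1 (0.63), EPRS1 (0.53) and WARS1 (0.44), which were higher on both hypoxic arrays without such a match, and 6 genes between -0.29 and -0.10. YARS2, the mitochondrial gene with the element, had -0.21. A match of letters is a description of the window and not of binding. The core ACGTG was found for 9 of 30 members (30%), against 24.9% of all genes.

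**Figure D3:**
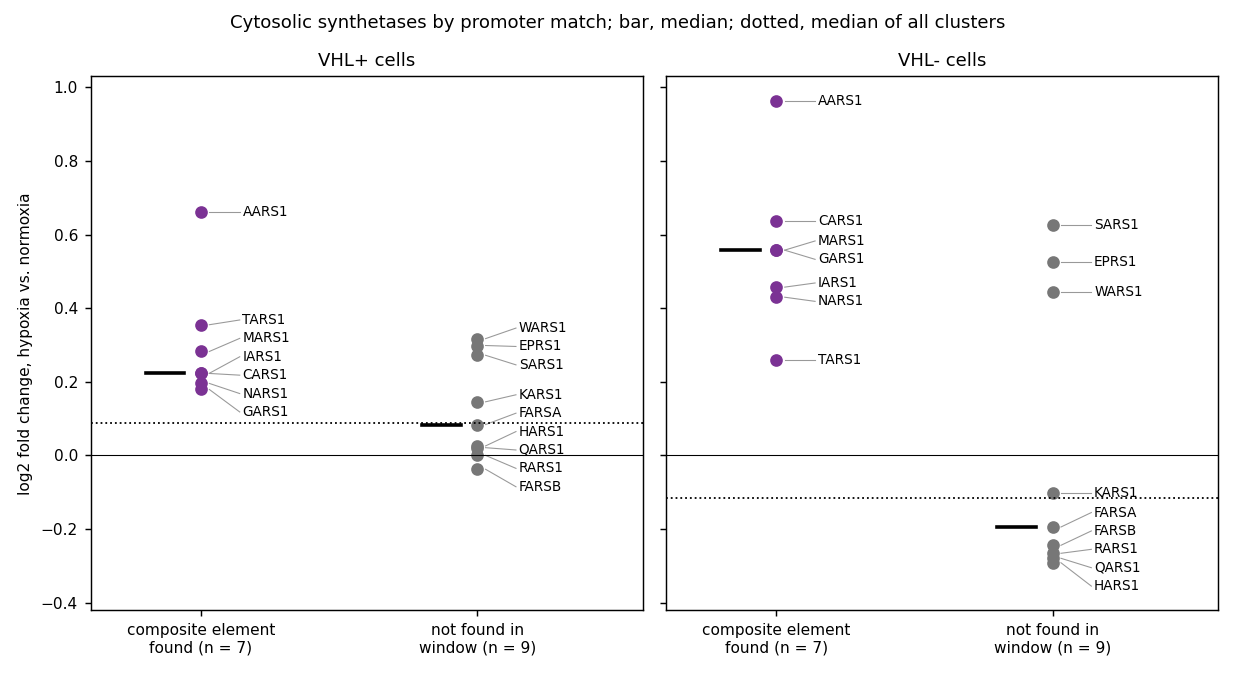
Log2 fold change of hypoxia vs. normoxia (y axis) of the cytosolic synthetase genes with a RefSeq promoter, split by whether TGATGNAA was found (x axis), in VHL+ cells (left) and VHL- cells (right). Points are genes, bars are medians and dotted lines are the medians of all clusters. In VHL- cells all 7 genes with the element lie above 0, and of the 9 others 3 lie above 0.

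Expression of VHL was compared under each oxygen condition. Under normoxia 1 member was called higher in VHL+ cells (CARS2, background 2.07%) and 1 lower (WARS1, background 2.69%), while after quantile normalization EPRS1 was higher in place of CARS2. The share of all clusters called under normoxia after quantile normalization is not given here. Both VHL+ arrays lay above both VHL- arrays for 9 members (14.2% of all clusters) and below for 7 members (26.2%). Under hypoxia 5 members were called higher (background 10.3%) and 1 lower (background 1.31%), where 11.6% of all clusters were called in either direction. After quantile normalization, 2 members were higher (CARS2 and YARS2, background 2.76%) and 6 were lower (GARS1, IARS1, MARS1, SARS1, WARS1 and FARS2, background 2.74%), so that the split of calls depended on the scaling. Under hypoxia 19 members had both VHL+ arrays above both VHL- arrays, beside 46.4% of all clusters, and 9 had both below, beside 4.81% of all clusters. All 9 of the lower members were cytosolic.

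Of 17 calls of members over the comparisons, 15 were lost without VHL+ hypoxia replicate 1 and 9 without VHL+ hypoxia replicate 2. Every call for VHL under hypoxia was lost without either of them. The calls of CARS2 and WARS1 for VHL over both oxygen conditions passed with every array left out in turn. Without VHL+ hypoxia replicate 1, 0.769% of all clusters were called for VHL under hypoxia, so the loss was not particular to the synthetases. The prior degrees of freedom of the fit fell to 4.14 without either hypoxic VHL+ array, below that with all arrays, and each of the 17 log2 fold changes kept its sign with any array left out.

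Mitochondrial cysteinyl-tRNA synthetase, CARS2, had the largest difference between VHL+ and VHL- cells of any member. It had log2 signals of 10.09 and 10.38 in VHL+ cells under hypoxia, against 8.18 and 8.77 in VHL- cells under hypoxia. Under normoxia it had 9.37 and 9.94 in VHL+ cells, against 8.18 and 9.00 in VHL- cells. Every VHL+ array lay above every VHL- array. Under hypoxia this came to 3.39-fold (log2 fold change 1.76, SE 0.24, adjusted p = 0.000104), under normoxia to 2.10-fold (log2 1.07, SE 0.24, adjusted p = 0.0107) and over both oxygen conditions to 2.67-fold (log2 1.41, SE 0.17, adjusted p = 7.92e-07). Without 1 of the hypoxic VHL+ arrays the adjusted p reached 0.0845 under hypoxia, where the log2 fold change was 1.62 or 1.90, and 0.193 under normoxia, where it was 1.07 as before. After quantile normalization it was 1.49 under hypoxia (adjusted p = 0.0282) and 1.06 under normoxia (adjusted p = 0.0742). Under normoxia it was 0.66 without VHL- normoxia replicate 1, the lowest with 1 array left out. Its cytosolic partner CARS1 had -0.19 under hypoxia and 0.22 under normoxia.

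Cytosolic tryptophanyl-tRNA synthetase, WARS1, which is also known as a gene induced by interferon-γ, was the member with the largest decrease. It had log2 signals of 9.54 and 9.86 in VHL+ cells under hypoxia, against 10.46 and 10.44 in VHL- cells under hypoxia. Under normoxia it had 9.22 and 9.55 in VHL+ cells, against 9.88 and 10.13 in VHL- cells. Every VHL+ array lay below every VHL- array, and in both cell types the hypoxic mean was above the normoxic mean. For VHL the log2 fold change came to -0.75 under hypoxia (SE 0.16, adjusted p = 0.00438), -0.62 under normoxia (SE 0.16, adjusted p = 0.0249) and -0.69 over both (SE 0.11, adjusted p = 7.84e-05). With 1 array left out the adjusted p reached 0.183 under hypoxia (lost without either hypoxic VHL+ array) and 0.265 under normoxia (lost also without VHL+ normoxia replicate 1 or VHL- normoxia replicate 2). Of 6 measured genes of an interferon-γ list, PSMB9 was lower in VHL+ cells under normoxia (-0.79, SE 0.20, adjusted p = 0.0286), beside 2.69% of all clusters. GBP2 (0.61, SE 0.15, adjusted p = 0.0147) and CXCL10 (0.97, SE 0.16, adjusted p = 0.000788) were higher in VHL+ cells under hypoxia, beside 10.3% of all clusters. After quantile normalization 0 of these calls stood, and each of them was lost without VHL+ hypoxia replicate 2. The call of GBP2 was lost also without VHL+ hypoxia replicate 1 or VHL- hypoxia replicate 1, and that of PSMB9 also without VHL+ hypoxia replicate 1 or VHL- normoxia replicate 1. The mitochondrial partner WARS2 went the other way: it had 8.32 and 8.22 in VHL+ cells under hypoxia and 8.25 and 8.58 in VHL+ cells under normoxia, against 7.65 and 8.14 in VHL- cells under hypoxia and 7.98 and 8.07 in VHL- cells under normoxia. Again the groups did not overlap, with VHL+ arrays the higher. Its log2 fold change over both oxygen conditions was 0.39 (SE 0.12, adjusted p = 0.0219), with 0.0818 after quantile normalization and up to 0.157 with 1 array left out (lost without VHL+ hypoxia replicate 1, VHL+ normoxia replicate 2 or VHL- hypoxia replicate 1).

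For methionine too, 1 gene of each compartment was called, in opposite directions. Mitochondrial MARS2 had 7.39 and 7.55 in VHL+ cells under hypoxia and 7.18 and 7.64 in VHL+ cells under normoxia, against 6.64 and 6.82 in VHL- cells under hypoxia and 7.05 and 7.03 in VHL- cells under normoxia. Every VHL+ array lay above every VHL- array. Under hypoxia the log2 fold change reached 0.74 (SE 0.16, adjusted p = 0.00449), and the adjusted p was 0.0649 after quantile normalization and up to 0.116 without a hypoxic VHL+ array. Cytosolic MARS1 had 9.70 and 9.84 in VHL+ cells under hypoxia and 9.35 and 9.63 in VHL+ cells under normoxia, against 10.15 and 10.43 in VHL- cells under hypoxia and 9.43 and 10.03 in VHL- cells under normoxia. The groups overlapped under normoxia. Its log2 fold change over both oxygen conditions was -0.38 (SE 0.13, adjusted p = 0.0426), with an adjusted p up to 0.329 with 1 array left out (lost without VHL+ hypoxia replicate 1, VHL+ normoxia replicate 1, VHL- hypoxia replicate 2 or VHL- normoxia replicate 2).

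Mitochondrial tyrosyl-tRNA synthetase, YARS2, had 7.42 and 7.31 in VHL+ cells under hypoxia and 7.20 and 7.30 in VHL+ cells under normoxia, against 6.71 and 6.93 in VHL- cells under hypoxia and 7.03 and 7.04 in VHL- cells under normoxia. The groups did not overlap under either condition. Under hypoxia it differed by 0.54 on the log2 scale (SE 0.14, adjusted p = 0.0140), and this call passed after quantile normalization (adjusted p = 0.0335), but not without either hypoxic VHL+ array or VHL- hypoxia replicate 1 (up to 0.182). Cytosolic YARS1 had a log2 fold change of -0.43 under hypoxia and 0.02 under normoxia and did not pass.

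**Figure D4:**
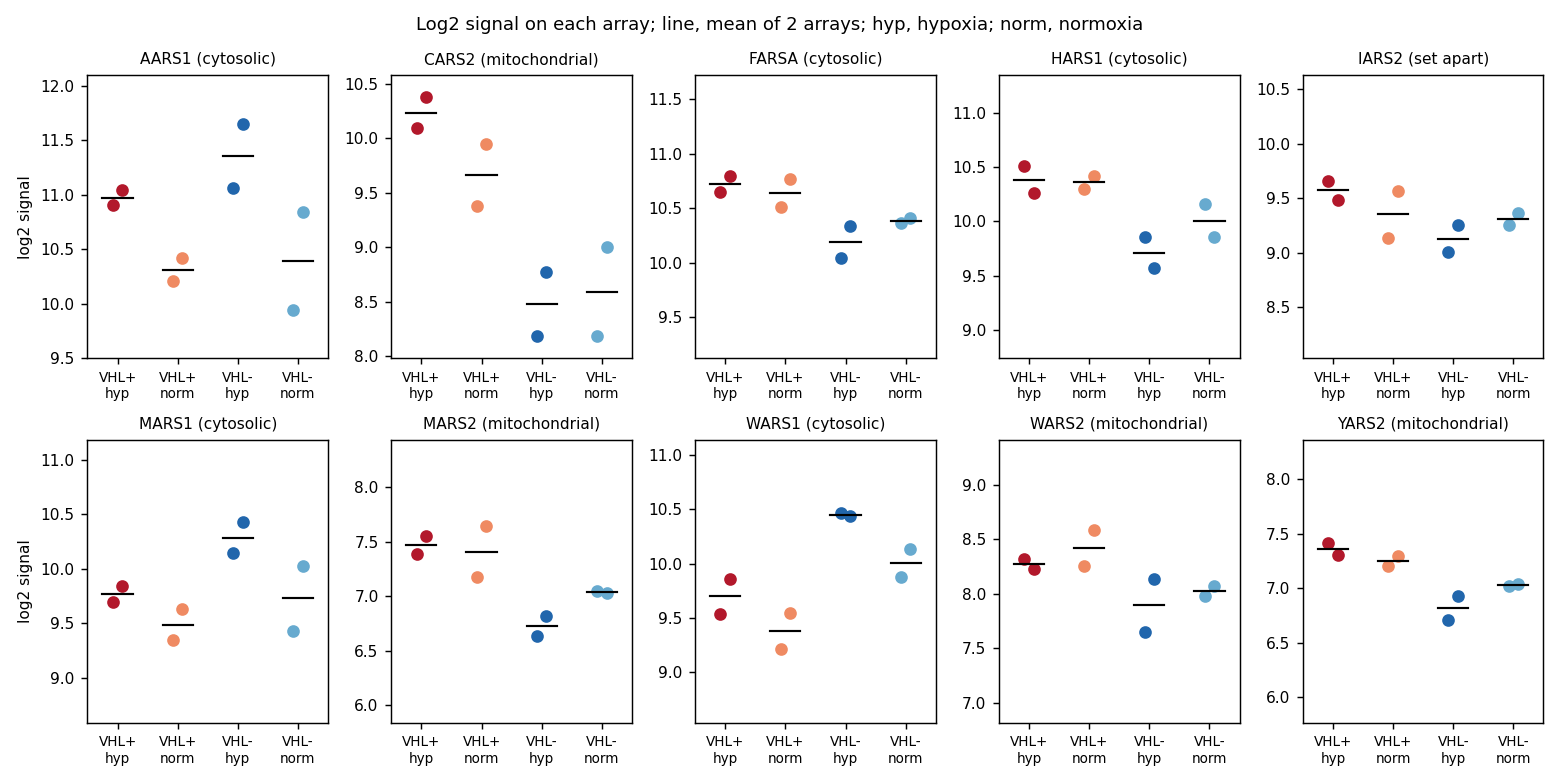
Log2 signal (y axis) on each array for the 10 members given array by array, in the 4 groups (x axis), with points for arrays and lines for the mean of 2 arrays; every panel spans the same number of log2 units. CARS2 and MARS2 lie higher and WARS1 lower on all VHL+ arrays than on all VHL- arrays, and AARS1 lies higher on all hypoxic arrays than on all normoxic ones.

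Of the cytosolic genes, FARSA and HARS1 were called higher for VHL in the deposited scaling. FARSA, the catalytic subunit of cytosolic phenylalanyl-tRNA synthetase, had 10.65 and 10.80 in VHL+ cells under hypoxia and 10.51 and 10.77 in VHL+ cells under normoxia, against 10.04 and 10.33 in VHL- cells under hypoxia and 10.36 and 10.41 in VHL- cells under normoxia. All VHL+ arrays lay above all VHL- arrays, by 0.53 on the log2 scale under hypoxia (SE 0.15, adjusted p = 0.0230) and by 0.40 over both conditions (SE 0.11, adjusted p = 0.0141). Quantile normalization brought the log2 fold change under hypoxia to 0.26 (adjusted p = 0.141). With 1 array left out it ran from 0.39 to 0.68, and the call was lost without either hypoxic VHL+ array or VHL- hypoxia replicate 1 (adjusted p up to 0.270). The call over both conditions was lost without these arrays or VHL+ normoxia replicate 2 (adjusted p up to 0.0872). FARSB, the partner subunit, had 0.35 under hypoxia and did not pass.

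Histidyl-tRNA synthetase, HARS1, had 10.51 and 10.26 in VHL+ cells under hypoxia and 10.30 and 10.42 in VHL+ cells under normoxia, against 9.85 and 9.57 in VHL- cells under hypoxia and 10.16 and 9.85 in VHL- cells under normoxia. All VHL+ arrays were higher than all VHL- arrays. Under hypoxia the difference was 1.59-fold (log2 0.67, SE 0.15, adjusted p = 0.00807), a call lost after quantile normalization (log2 0.39, adjusted p = 0.315) and without either hypoxic VHL+ array (up to 0.220). HARS2, the mitochondrial enzyme, had 0.39 under hypoxia and 0.14 under normoxia, and did not pass. HARS1 and HARS2 lie head to head, with 84 bases between their RefSeq starts at chr5:140691371-140691454 (GRCh38.p14). In the deposited scaling both genes had the same direction in each comparison but hypoxia in VHL+ cells (0.03 for HARS1, -0.07 for HARS2). After quantile normalization they shared the direction there (-0.13 and -0.23) but not for the interaction (0.059 and -0.0083). Because of the shared directions, the stretch is shown on the plus strand, the strand of HARS2.
HARS1-HARS2: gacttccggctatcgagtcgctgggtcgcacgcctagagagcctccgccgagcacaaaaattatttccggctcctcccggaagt

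Over both oxygen conditions, 6 members were called higher in VHL+ cells (CARS2, HARS1, MARS2, FARSA, YARS2 and WARS2, background 10.6%) and 2 were called lower (WARS1 and MARS1, background 3.72%). After quantile normalization 4 were higher (background 8.4%) and 5 lower (background 7.6%). The median log2 fold change for VHL under hypoxia was -0.00 over the cytosolic and 0.33 over the mitochondrial genes, beside 0.16 for all clusters. The difference of these medians, cytosolic minus mitochondrial, was -0.33 under hypoxia and -0.07 under normoxia. The SD between replicate arrays, 0.06 and 0.01 (n = 2 each), is that of another measure, the difference of median signals on single arrays. Under normoxia that array difference went the other way, with 2.27 and 2.25 in VHL+ cells against 2.14 and 2.14 in VHL- cells. The sign of the difference in median log2 fold change was not stable under normoxia. That difference was 0.06 without VHL- normoxia replicate 2 and 0.0043 without VHL+ normoxia replicate 1. Under hypoxia the cytosolic median ran from -0.20 to 0.09 (without VHL- hypoxia replicate 1 and replicate 2) and the mitochondrial one from 0.18 (without VHL- hypoxia replicate 1) to 0.33. In 12 of 17 pairs under hypoxia and 8 of 17 under normoxia the cytosolic gene had the lower log2 fold change.

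**Figure D5:**
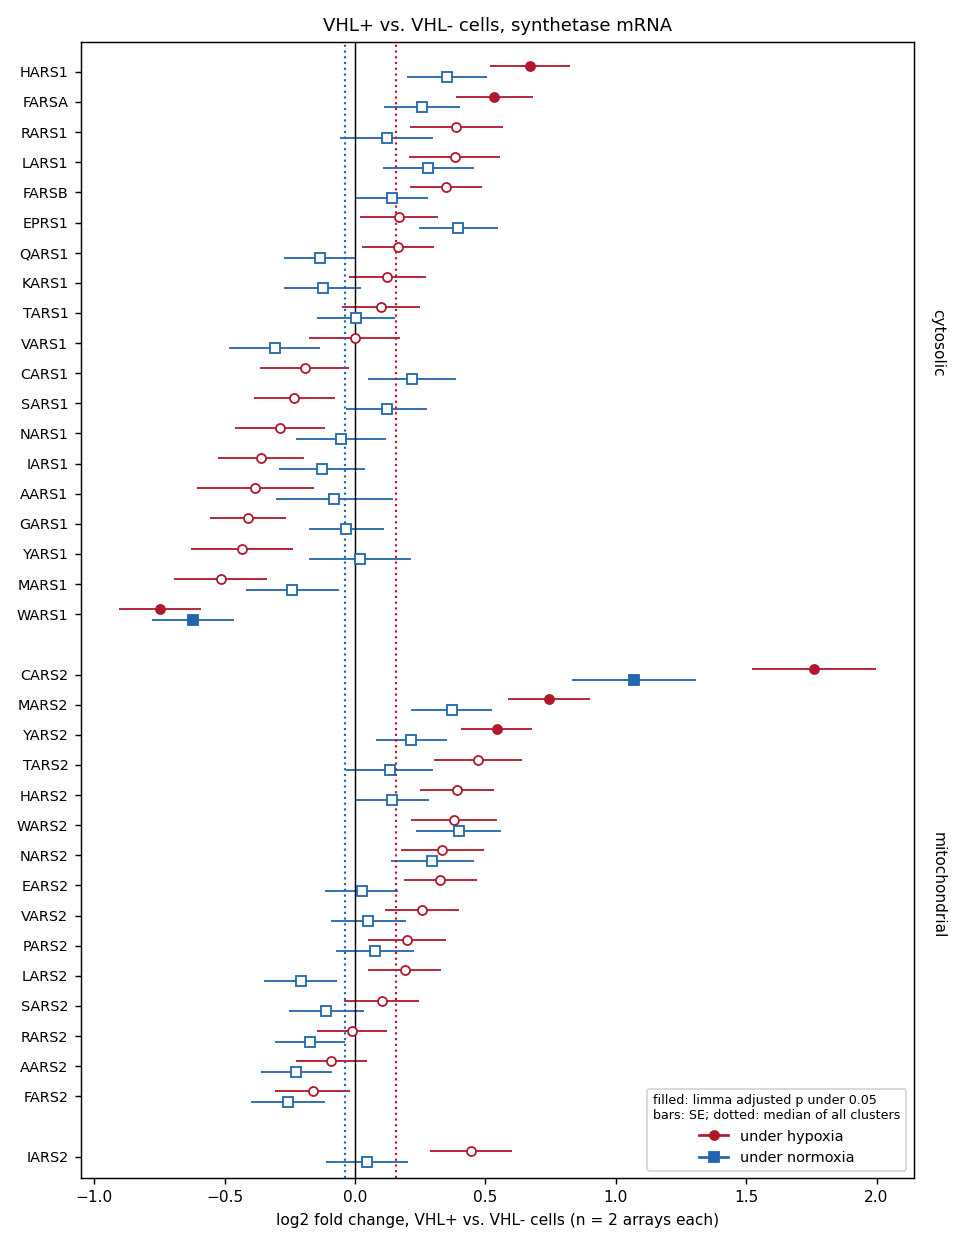
Log2 fold change of VHL+ vs. VHL- cells (x axis) for each of the 35 synthetase genes (y axis), with circles for hypoxia and squares for normoxia. Bars are standard errors of the limma fit (n = 2 arrays a group), filled symbols mark an adjusted p under 0.05, and dotted lines give the medians of all clusters (0.16 under hypoxia and -0.04 under normoxia). CARS2 (1.76 and 1.07) and WARS1 (-0.75 and -0.62) stand at the ends of the range.

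Mitochondrial isoleucyl-tRNA synthetase, IARS2, had 9.66 and 9.49 in VHL+ cells under hypoxia and 9.14 and 9.57 in VHL+ cells under normoxia, against 9.00 and 9.25 in VHL- cells under hypoxia and 9.25 and 9.36 in VHL- cells under normoxia. The groups overlapped under normoxia and not under hypoxia. Its log2 fold change for VHL under hypoxia, 0.45 (SE 0.16, adjusted p = 0.0770), did not pass. It lay among the mitochondrial genes in that comparison and for hypoxia in VHL- cells (-0.18).

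The interaction of VHL and hypoxia tested whether the response to hypoxia differed between VHL+ and VHL- cells. No member passed limma's adjusted threshold, which 0.00601% of all clusters passed, and 0 passed at an unadjusted p under 0.05, beside 5.61% of all clusters. After quantile normalization 0 members passed as well, and CARS2 passed without VHL- hypoxia replicate 2 or VHL- normoxia replicate 1. The fitted interaction, the response in VHL+ cells minus that in VHL- cells, had a median of -0.13 over the cytosolic and 0.21 over the mitochondrial genes, beside 0.21 for all clusters. It was -0.45 for YARS1, the lowest, and 0.69 for CARS2, the highest. For AARS1 it was -0.30 with a 95% interval from -0.92 to 0.32, so that a smaller, equal or moderately larger response in VHL+ cells could not be told apart. Whether the gap between the compartments under hypoxia differed between VHL+ and VHL- cells was not tested.

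Across the 35 members, the log2 fold change for VHL under hypoxia and under normoxia had a Pearson r of 0.81 (0.85 over all clusters), with the same sign for 28. For hypoxia in VHL+ and in VHL- cells r was 0.65 (0.39 over all clusters), with the same sign for 19. The members share the arrays and are not independent replicates, so no test is given.

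Genes that act beside the synthetases were taken from lists chosen with earlier results of these data known. Of 20 genes of the ATF4 pathway, 2 were called higher for hypoxia in VHL+ cells (TRIB3 1.33 and STC2 1.06) and 4 in VHL- cells (ASNS 1.31, NUPR1 1.66, PSAT1 1.26 and CTH 1.65). Of all clusters, 0.153% and 0.0661% were called in these comparisons, in either direction. The letters TGATGNAA were found for 4 of 16 genes of the list with a promoter (25%), namely ASNS, ATF3, CHAC1 and SLC3A2. They were not found for TRIB3, STC2, PSAT1 and CTH. The medians of the list were 0.47 in VHL+ cells and 0.66 in VHL- cells, beside 0.09 and -0.12 for all clusters. These medians were 0.30 in VHL+ cells without VHL+ normoxia replicate 1 and 0.29 in VHL- cells without VHL- normoxia replicate 1. This VHL- array lay below replicate 2 for every gene of the list but ATF5, for example for CTH (6.75 against 8.07) and SLC7A5 (9.35 against 10.80). Each of these calls was lost without either hypoxic VHL+ array, and 0 passed after quantile normalization. ASNS, which makes asparagine, had 7.97 and 8.08 in VHL+ cells under hypoxia, against 7.30 and 7.35 in VHL+ cells under normoxia. In VHL- cells it had 9.07 and 9.37 under hypoxia, against 7.55 and 8.26 under normoxia. Its hypoxic arrays lay above its normoxic arrays in both cell types, as for AARS1. ATF4 mRNA had a log2 fold change of 0.04 (SE 0.22) for hypoxia in VHL+ cells and 0.10 (SE 0.22) in VHL- cells. For VHL under hypoxia, 1 gene of this list was called higher (ATF5), beside 10.3% of all clusters, and 5 lower, beside 1.31%. In the quantile scaling 5 were lower, PSAT1 no longer among them, and ATF5 was not called. The lower genes included CTH (-1.77, adjusted p = 0.000212) and ASNS (-1.19, adjusted p = 0.000382), and the median was -0.44 beside 0.16 for all clusters, or -0.24 without VHL+ hypoxia replicate 1. Both calls were lost without either hypoxic VHL+ array.

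Of the 4 eIF2α kinases, 2 were called higher for VHL under hypoxia, beside 10.3% of all clusters. They were EIF2AK2 (0.76, SE 0.17, adjusted p = 0.00586), known as PKR, and EIF2AK3 (0.50, SE 0.15, adjusted p = 0.0400), known as PERK. After quantile normalization neither passed (adjusted p = 0.0508 and 0.503), nor did they without either hypoxic VHL+ array, EIF2AK3 also not without either hypoxic VHL- array. After quantile normalization 1 of the other kinases was called lower for VHL under hypoxia, beside 2.74% of all clusters. Under normoxia 1 of the 4 was, where the share of all clusters is not given. None of the 4 was called for hypoxia in either cell type.

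On the mitochondrial side, 10 translation factors were measured. For VHL, 2 of them were called higher under hypoxia and 1 under normoxia, beside 10.3% and 2.07% of all clusters. MTIF3, an initiation factor, was higher in VHL+ cells under hypoxia (0.97, SE 0.14, adjusted p = 0.000261) and under normoxia (0.89, SE 0.14, adjusted p = 0.000863), and after quantile normalization both calls passed (adjusted p = 0.00674 and 0.00333); the call under hypoxia was lost without VHL+ hypoxia replicate 1. MTRF1, which acts in termination, was higher under hypoxia (0.62, SE 0.15, adjusted p = 0.0110, with 0.0479 after quantile normalization). Of 9 measured genes of tRNA handling, 2 were called higher for VHL under hypoxia, beside 10.3% of all clusters. They were MTFMT, which formylates the mitochondrial initiator methionyl-tRNA made by MARS2 (0.74, SE 0.15, adjusted p = 0.00327, with 0.0346 after quantile normalization), and the tRNA 3′ processing enzyme ELAC2 (0.67, SE 0.16, adjusted p = 0.0110, with 0.127 after quantile normalization). After quantile normalization 1 gene of this list was called higher and 2 were called lower, beside 2.76% and 2.74% of all clusters. Of 7 cytosolic elongation and termination factors, 1 was called higher under hypoxia, beside 10.3% of all clusters. It was EEF1B2 (0.48, SE 0.14, adjusted p = 0.0279, with 0.178 after quantile normalization). The MTRF1, MTFMT, ELAC2 and EEF1B2 calls were lost without either hypoxic VHL+ array, and all but that of MTFMT also without VHL- hypoxia replicate 1. AIMP1, a scaffold of the multi-synthetase complex, had a log2 fold change of 0.15 (SE 0.14) under hypoxia and 0.03 (SE 0.14) under normoxia. None of these lists but that of the ATF4 pathway had a call for hypoxia in VHL- cells.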

How the data were processed

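The authors normalized 8 Affymetrix arrays by RMA in Partek Genomic Suite (version not given in the sources used here) and deposited log2 signals for 33297 transcript clusters, which were used as deposited and span 4.81 to 14.0. Symbols came from the array's annotation (19460 clusters have 1, 1754 several and 12083 none). VARS1 and VARS2 each have 2 clusters, with nearly the same values. limma 3.58.1 in R 4.3.3 was fitted over all arrays, either with group means (residual degrees of freedom 4, prior 14.0) or with both factors added. After quantile normalization the prior degrees of freedom of the fit with group means were 2.82. Their part in the calls lost in that scaling was not tested. The p-values of the 7 comparisons were adjusted over all clusters after Benjamini and Hochberg, and members under 0.05 in any of them, with IARS2 and WARS1, are given array by array. The fits were tested on simulated data. The labels call the replicates biological, and n = 2 limits every precision. Same-numbered replicates deviated together with r between 0.05 and 0.60, the highest between normoxic and hypoxic VHL- cells. The labels give only a replicate number and name no pairs, and the main fits left this number out. Calls with it as a block differ and are given in the last section. The authors' methods test was a one-way test at an unadjusted p under 0.005. The members and lists were chosen with earlier results of these data known. Some genes of the related lists were not analysed here.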

Additional observations from a re-analysis of the deposited data

How the results depend on the processing

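For single named members, 200 values in other settings kept their direction and side of the threshold, 57 lost and 4 gained a call, and 0 changed sign while called. Calls of members moved more. Shares of all clusters are not set beside the counts below, so these show only how the calls depended on the setting. For VHL under normoxia, where 2 members were called, 0 were called with median centring or with dim clusters left out. In that comparison 0 were called in a fit to the compared groups alone, or by an unmoderated test of those groups with or without adjustment. A minimum change of 2-fold left 1, and 6 passed at limma's unadjusted p under 0.05. Under hypoxia, where 6 were called, 3 were called with median centring, 10 with the replicate number as a block, 1 with a 2-fold minimum and 19 unadjusted. The unmoderated test of the compared groups called 0 there, both after adjustment and at an unadjusted p under 0.005. For hypoxia in VHL+ cells, where 0 were called, 2 were called with the replicate block, 1 with a trend and robust estimation, 1 in a fit to the compared groups alone and 3 unadjusted, and in VHL- cells, where 0 were called, 4 with the replicate block, 2 with a trend and 11 unadjusted. For VHL over both conditions (8 called), a 2-fold minimum left 1, and 16 passed unadjusted. For hypoxia over both cell types (1 called), 0 were called after quantile normalization, with median centring, with dim clusters left out or with a 2-fold minimum, 5 with the replicate block and 11 unadjusted. With 1 array left out, the members called ran from 0 to 9 for VHL under hypoxia, 0 to 4 under normoxia, 0 to 1 for hypoxia in VHL+ and 0 to 5 in VHL- cells, 0 to 1 for the interaction, 2 to 13 for VHL over both conditions and 0 to 6 for hypoxia over both. Fewer arrays change the fit's prior degrees of freedom. Beyond this the causes were not tested.

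The difference of medians, cytosolic minus mitochondrial, was -0.40 for VHL under hypoxia and 0.40 for hypoxia in VHL- cells when means replaced medians. For VHL under normoxia it was -0.11 with means, -0.12 after quantile normalization, -0.061 with IARS2 added and -0.058 without GARS1 and KARS1. With 1 array left out it ran from -0.38 to -0.25 and from -0.19 to 0.064 for VHL under hypoxia and normoxia, and from 0.086 to 0.20 and from 0.43 to 0.60 for hypoxia in VHL+ and VHL- cells. Each group has 2 arrays, so outlying arrays within a group could not be assessed.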
